A study of Arabidopsis thaliana with 11 samples.

Results

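Fe-1 embryos were compared with the embryos of Ler-0, Nw-0 and Bay-0, which are the other accessions of this series that the sample labels call ZLL dependent. The comparison rests on 6 of the 11 arrays: 3 biological replicates of Fe-1 on one side, and 1 array each of Ler-0, Nw-0 and Bay-0 as one group of 3 on the other. The arrays were chosen from their titles and from the dependency label alone, without regard to any measured value. It asks how far gene expression varies inside the dependent class. All plants were wild type and untreated, and RNA came from whole torpedo-stage embryos dissected out of maturing seeds, with embryos of an accession pooled. Ler-0 additionally carries the erecta mutation. The labels name the Ler-0 array Ler-1 in another field. The remaining 5 arrays, of the ZLL independent accessions Col-0 (3 arrays), Ts-1 and Van-0 (1 each), serve here to place the Fe-1 values. Fe-1 is thus 1 accession seen 3 times, whereas the other side is 3 accessions seen once, so p-values measure a difference between these arrays and not between samples of accessions.

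ZLL, also named AGO10, is an ARGONAUTE protein, and ARGONAUTE proteins carry small RNAs that silence matching transcripts. In the embryo, ZLL is needed to keep stem cells at the tip of the shoot, where it holds back miR165 and miR166 and so protects transcripts of the class III HD-ZIP transcription factors. In a dependent accession the loss of ZLL ends the stem cells, while an independent accession largely tolerates it. SQN, a cyclophilin, supports the related protein AGO1.

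Expression was read on the ATH1 chip, on which each probe set is several short oligonucleotides that match Col-0. Values are log2 signals after RMA, which corrects background, equalises the distributions of the arrays and gives 1 value per probe set. A difference of 1 on this scale is 2-fold. Because probes follow Col-0, a lower signal in another accession can be less transcript or a poorer match to the probes, and these cannot be told apart here. Array medians lay between 7.57 and 7.71, and lower quartiles between 4.92 and 5.04. A probe set was called at a Benjamini-Hochberg adjusted p under 0.05 over 22746 probe sets (limma) if it also differed at least 3-fold. The annotation gives 1 gene to 13513 of them, and 8730 are not in it. The fixed list of embryo markers had 0 of 28 genes with a 1-gene probe set, so the tissue label was not checked from them. Below, a gene counts as measured only if the annotation gives it a 1-gene probe set or a table of the paper names its probe set. Other genes can be read by probe sets that carry no name here, and these were not searched.

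Some arrays stood apart before any grouping. The Ler-0 array was the most distant of the dependent accessions, with 466 to 510 probe sets at least 3-fold away from a Fe-1 array, against 260 to 310 for Nw-0 and 258 to 356 for Bay-0. Ler-0 was about as far from Nw-0 (467 probe sets) and Bay-0 (481), which were 229 probe sets apart from each other. Fe-1 arrays differed among themselves in 22 to 84 probe sets, and the widest pair was replicates 1 and 2, whereas Col-0 replicates differed in 4 or 5. The seed coat gene BAN, which encodes anthocyanidin reductase, read 5.07 in Fe-1 replicate 1, 8.77 in replicate 2 and 7.4 in replicate 3, against 5.26 in Ler-0, 5.01 in Nw-0 and 4.72 in Bay-0. DFR, an enzyme of the same pigment pathway, read 5.84, 9.51 and 7.53 in the Fe-1 replicates and 7.97, 6.33 and 5.28 in Ler-0, Nw-0 and Bay-0. These are the 2 seed coat genes measured, of 11 on the list. Fe-1 replicates 2 and 3 were above the other dependent accessions in BAN, and replicate 2 in DFR, where Ler-0 was higher than replicate 3. The endosperm gene AGL62, the only one measured of 6, stayed between 3.53 and 4.0 on all 6 arrays. The widest range among the 3 Fe-1 arrays in any called probe set was 1.01, against 3.70 for BAN. A wide spread among the Fe-1 arrays itself works against a call, so this narrow range follows in part from the threshold.

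**Figure D1:**
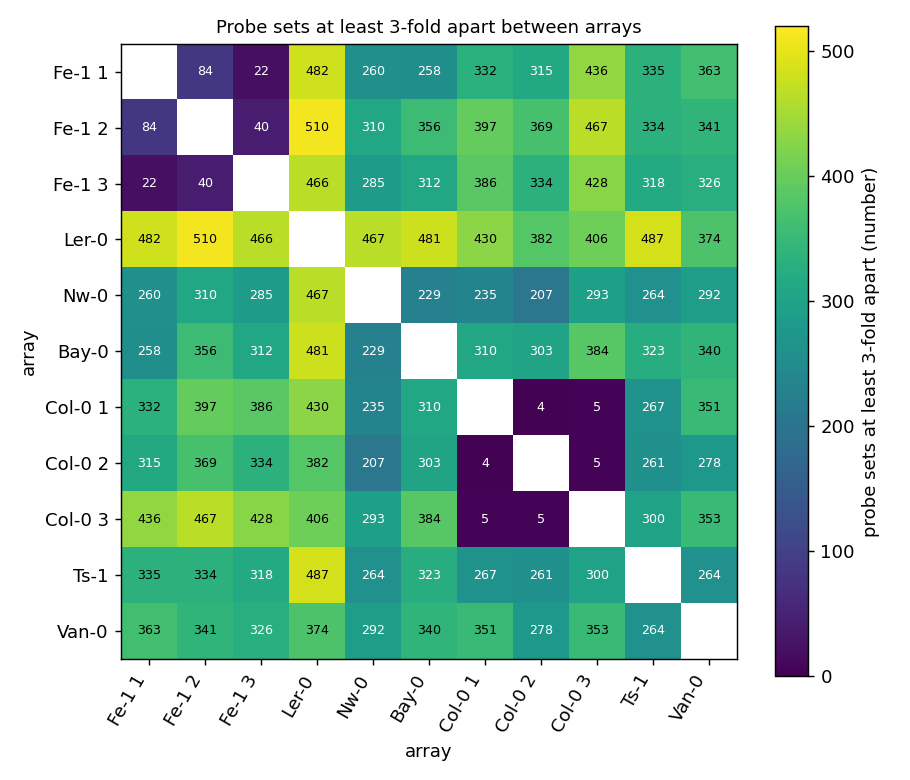
Number of probe sets at least 3-fold apart between each pair of the 11 arrays (rows and columns are arrays; the colour and the printed number give the count). The Ler-0 row holds the highest counts, up to 510, while Fe-1 replicates differ in 22 to 84 probe sets.

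Fe-1 exceeded Ler-0/Nw-0/Bay-0 in 26 probe sets and fell below it in 29, which is 0.114% and 0.127% of the 22746 tested, or 0.242% together. A total of 16 of the higher and 18 of the lower probe sets have 1 gene name. At any fold, 133 passed the adjusted p as higher (0.585%) and 99 as lower (0.435%), 1.02% together. At an unadjusted p under 0.05 there were 3179 (14%). Differences of at least 3-fold, whatever their p, were seen in 174 probe sets. The median of all 22746 differences was 0.008. All 55 called probe sets had 3 Fe-1 arrays wholly outside the range of the 3 other arrays, which was also true of 4743 of all probe sets (20.9%). The spread differed between the sides, as the median SD was 0.097 in Fe-1 and 0.153 among Ler-0, Nw-0 and Bay-0, and was larger among the latter in 68.1% of probe sets. The number of calls depended on which side lost an array. It rose to 116 without Ler-0, 87 without Bay-0 and 79 without Nw-0, and fell to 32, 26 and 27 without Fe-1 replicate 1, 2 or 3. Fe-1 replicate 1 alone differed from the 3 other arrays in the same direction and at least 3-fold in 51 of the 55. Replicate 1 was itself part of the call, so this follows in part from it. With accession as a random block (estimated correlation 0.57), 12 probe sets were higher and 12 lower, all 24 among the 55. Of the genes named here by rule, this lost AT3G58730 (adjusted p = 0.23), AT2G07773 (0.284), ALDH6B2 (0.153), AT2G27270 (0.111) and AT5G47600 (0.225).

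**Figure D2:**
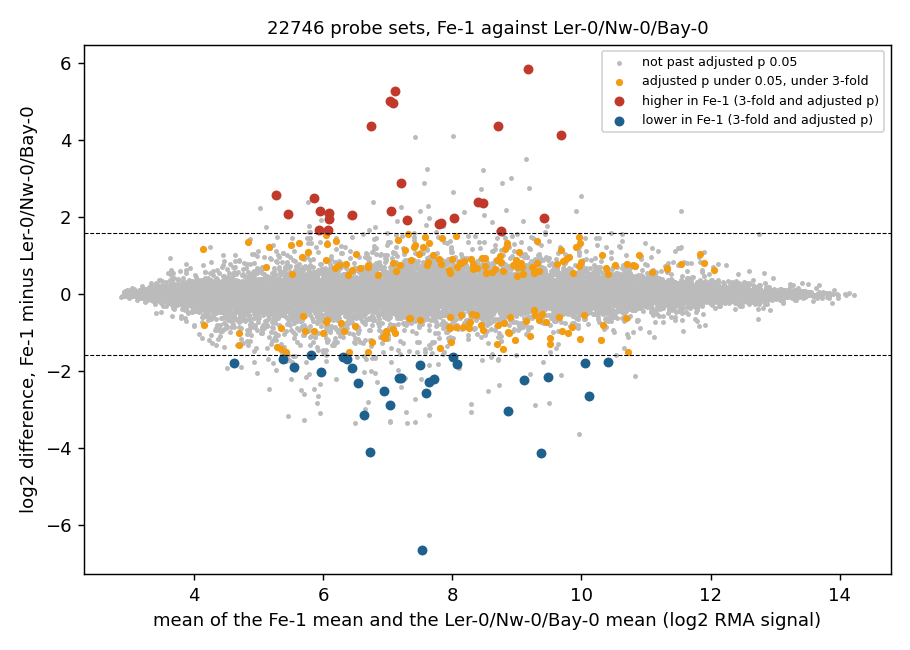
Each point is 1 of 22746 probe sets: the x axis gives the mean of both group means (log2 RMA signal), the y axis the log2 difference, Fe-1 minus Ler-0/Nw-0/Bay-0, and the dashed lines mark 3-fold. The 26 higher (red) and 29 lower (blue) probe sets lie among weak and strong signals, and points that passed the adjusted p but not the fold limit are orange.

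Some of the large increases were seen in Fe-1 alone. AT3G47320, a pseudogene on chromosome 3, read 12.04, 12.13 and 12.11 in Fe-1 against 6.12 in Ler-0, 6.15 in Nw-0 and 6.47 in Bay-0. This was a log2 difference of 5.85 ± 0.11 (SE), or 57.5-fold, with an adjusted p of 3.95e-05. No other array of the series came near Fe-1, as Col-0 averaged 6.10 (n = 3), Ts-1 read 6.60 and Van-0 6.34. The neighbouring genes AT3G43280 and AT3G43290 were also raised in Fe-1 alone. AT3G43290 read 8.48, 8.65 and 8.83 in Fe-1 and 6.03, 5.46 and 5.80 in Ler-0, Nw-0 and Bay-0 (difference 2.89 ± 0.17, adjusted p = 0.00194), and Ts-1 (5.81), Van-0 (6.01) and the Col-0 mean (5.70) lay with the latter. AT3G43280 read 6.54, 6.29 and 6.65 in Fe-1 against 4.44, 4.41 and 4.37 (difference 2.08 ± 0.11, adjusted p = 0.00159). They were the only pair of called genes that follow each other among the measured genes of a chromosome. AT1G72240 read 7.23, 6.92 and 7.14 in Fe-1 against 4.50, 4.70 and 4.65 (difference 2.48 ± 0.11, adjusted p = 0.000886), and the highest other array was Van-0 at 5.04. AT2G07773 on chromosome 2, whose probe set is of a type that can bind several transcripts, read 9.86, 9.69 and 9.19 in Fe-1 against 7.90, 6.74 and 6.96 (difference 2.38 ± 0.33, adjusted p = 0.0397).

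Other increases set Fe-1 apart from its class but not from the whole series. AT2G04380 read 9.78, 9.71 and 9.76 in Fe-1, 4.0 in Ler-0, 4.06 in Nw-0 and 5.39 in Bay-0 (difference 5.27 ± 0.37, adjusted p = 0.00441), while Col-0 averaged 9.82. Ts-1 and Van-0, each at 4.13, lay with the low arrays. AT3G44430 read 9.63, 9.61 and 9.40 in Fe-1 against 4.23, 4.66 and 4.71, a difference of 5.01 ± 0.15. Here Col-0 (8.28), Ts-1 (8.72) and Van-0 (8.90) all lay on the Fe-1 side, so that Ler-0, Nw-0 and Bay-0 were the low arrays of the series. AT3G58730 encodes VHA-D, a subunit of the proton pump that acidifies the vacuole. It read 11.01, 10.93 and 10.72 in Fe-1 and 11.02 in Col-0, but 6.38 in Ler-0, 5.22 in Nw-0 and 7.94 in Bay-0. The spread among these last 3 arrays was wide (SD 1.37), and the difference of 4.37 ± 0.64 passed the threshold narrowly (adjusted p = 0.0442). Ts-1 (5.87) and Van-0 (6.45) lay with Ler-0, Nw-0 and Bay-0. AT2G25980 read 8.81, 8.98 and 8.98 in Fe-1 against 5.23, 4.2 and 4.28 (difference 4.35 ± 0.28, adjusted p = 0.0031), with Col-0 at 9.36, Ts-1 at 7.26 and Van-0 at 4.60. GSTU23, a glutathione transferase that couples glutathione to reactive compounds, read 8.25, 8.30 and 7.81 in Fe-1 and 5.59, 6.21 and 6.11 in Ler-0, Nw-0 and Bay-0. Its difference was 2.15 ± 0.21 (adjusted p = 0.0129), and all 3 independent accessions, at 7.52 to 7.61, were closer to Fe-1.

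Among the decreases, most were seen in Fe-1 alone. AT1G65220 read 7.25, 7.54 and 7.14 in Fe-1 against 11.46 in Ler-0, 11.51 in Nw-0 and 11.36 in Bay-0, a difference of -4.13 ± 0.12 (adjusted p = 0.000154). Col-0 (11.62) and Ts-1 (11.58) sat with the other dependent accessions, and Van-0 lay between at 9.56. AT3G51530 read 5.44, 5.72 and 5.60 in Fe-1, while the 8 other arrays lay between 8.12 and 8.59 (difference -2.89 ± 0.10, adjusted p = 0.000282). ALDH6B2 is an aldehyde dehydrogenase of mitochondria that acts in the breakdown of valine. It read 8.98, 8.87 and 8.52 in Fe-1 against 11.87, 11.65 and 10.78, a difference of -2.65 ± 0.30 (6.26-fold lower, adjusted p = 0.0213), and Col-0, Ts-1 and Van-0 lay at 11.64 to 11.78. AT4G14840 (difference -2.53 ± 0.12) and AT3G11420 (-2.28 ± 0.11) were likewise lower in Fe-1 than on every other array. In the remaining large decreases an independent accession was also low or lay between the groups, or the other arrays were uneven. AT5G44520 read 6.71, 6.71 and 6.40 in Fe-1 against 8.99, 8.67 and 8.80 (difference -2.21 ± 0.13), and Ts-1 (6.71) and Van-0 (5.64) were also low. AT4G14490 (difference -2.18 ± 0.13) was as low in Van-0 (6.24) as in Fe-1. AT5G47600 read 7.82, 8.05 and 8.09 in Fe-1 against 10.95, 10.08 and 9.69 (difference -2.25 ± 0.31, adjusted p = 0.0397), and Ts-1 stood highest of the series at 13.49. AT2G27270 differed by -2.31 ± 0.21 (adjusted p = 0.0106), with Ts-1 (7.11) and Van-0 (6.73) between the groups. In both AT5G47600 and AT2G27270 the Fe-1 arrays still lay below all 8 other arrays.

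**Figure D3:**
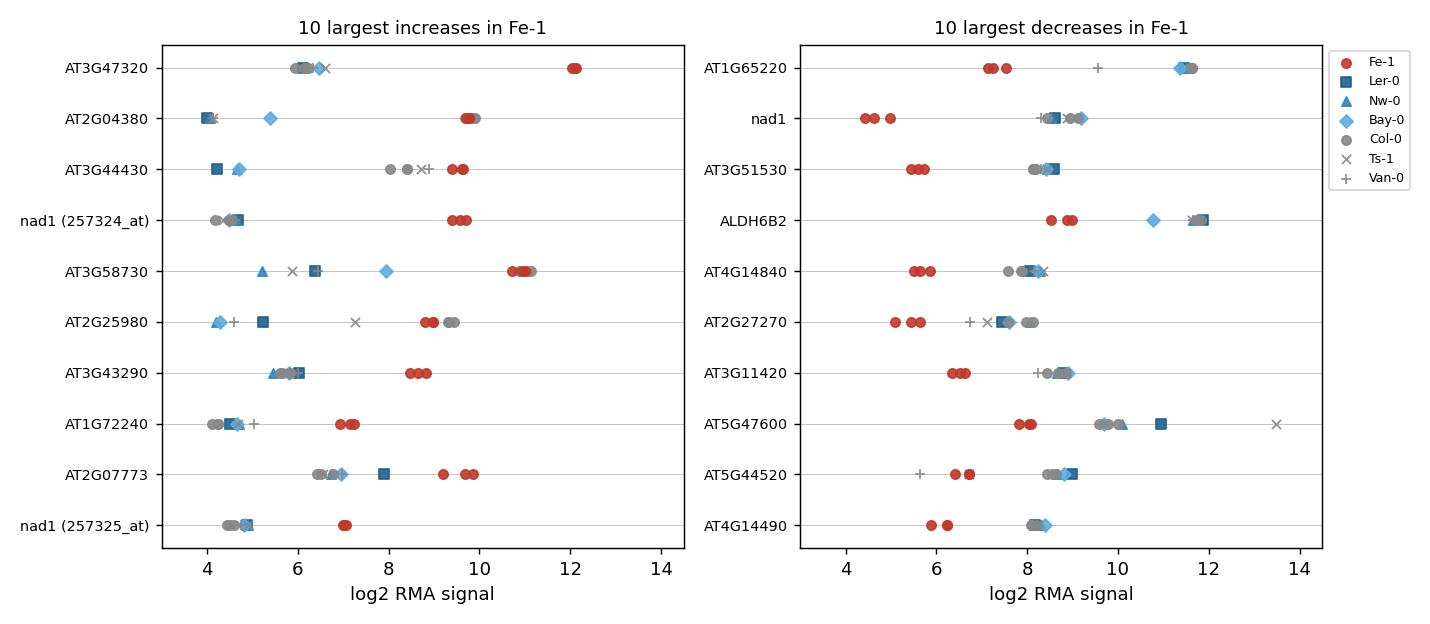
Log2 RMA signal (x axis) on each of the 11 arrays, with 1 point per array. Rows are called probe sets with 1 gene name, the 10 with the largest increase (left) and the 10 with the largest decrease (right) in Fe-1. The 3 Fe-1 arrays (red) lie apart from Ler-0, Nw-0 and Bay-0 (blue) in each row, and Col-0 (grey circles) overlaps or nears Fe-1 in rows such as AT2G04380 and AT3G58730.

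Over all called probe sets, 18 of the 26 higher ones exceeded all 8 arrays of other accessions, and 23 of the 29 lower ones lay below all 8. Of all 22746 probe sets tested, 1273 had the 3 Fe-1 arrays above all 8 others, and 895 had them below all 8. The called probe sets already separated Fe-1 from Ler-0, Nw-0 and Bay-0, so their high shares follow in part from the call. The independent accessions were also placed between the 2 group means. For 13 of the higher probe sets none of Col-0 (its mean), Ts-1 and Van-0 lay on the Fe-1 side of the midpoint, and for 3 all of them did. For the lower probe sets these counts were 20 and 0. Col-0 was on the Fe-1 side in 9 higher and 3 lower probe sets, Ts-1 in 7 and 4, and Van-0 in 5 and 4. The largest difference of all, -6.66, belonged to a probe set with no gene in the annotation. It read 4.03, 4.42 and 4.15 in Fe-1, 12.03 in Ler-0, 11.97 in Nw-0 and 8.59 in Bay-0 (adjusted p = 0.039). In 8 of the 26 higher probe sets the mean of the other accessions was below the lowest of the lower quartiles, and in 5 of the 29 lower ones the Fe-1 mean was, where a signal gives little more than a bound.

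Probe sets that the annotation gives to the mitochondrial gene nad1 went in both directions. This gene encodes subunit 1 of complex I of the respiratory chain. In plants its transcript is joined from separately transcribed pieces by trans-splicing. The annotation gives 7 probe sets to nad1 and does not say which piece each reads. One of them read 9.71, 9.57 and 9.40 in Fe-1 against 4.69, 4.63 and 4.49 in Ler-0, Nw-0 and Bay-0, a difference of 4.96 ± 0.11 (adjusted p = 3.95e-05). Another rose as well, from 4.89, 4.91 and 4.82 to 6.99, 7.07 and 7.01 (difference 2.15 ± 0.07). The third went the other way, with 4.98, 4.43 and 4.62 in Fe-1 against 8.62, 8.53 and 9.18 (difference -4.11 ± 0.22, adjusted p = 0.00169). In all 3 the independent accessions lay with Ler-0, Nw-0 and Bay-0, so Fe-1 was the exception in the series. The other 4 nad1 probe sets had differences of -0.18 to 0.32 and did not pass (adjusted p = 0.355 to 0.828). Of 23 probe sets with a mitochondrial name (genes of the nad, cox and ccb series, matR and orfX, a set chosen after the nad1 values were seen), only these 3 were called, beside 0.242% of all probe sets. Among the rest, nad4 differed by -0.31 (adjusted p = 0.227) and cox1, a subunit of cytochrome oxidase, by -0.41 (adjusted p = 0.387). The set of 23 was formed from names alone, so mitochondrial sequences under another name or none are not in it. Of 69 probe sets of the plastid genome 0 were called in limma, with 11 at an unadjusted p under 0.05, beside 14% of all probe sets.

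**Figure D4:**
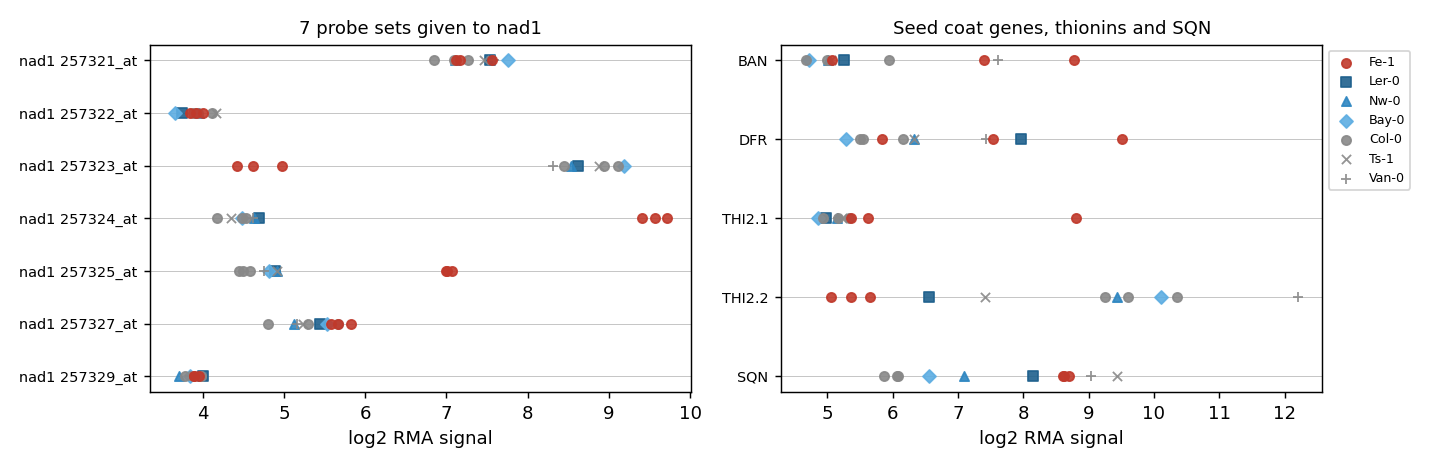
Log2 RMA signal (x axis) on the 11 arrays, 1 point per array, for the 7 probe sets given to nad1 (left) and for BAN, DFR, THI2.1, THI2.2 and SQN (right). Fe-1 (red) stands alone in 3 nad1 probe sets, above the other arrays in a pair of rows and below them in another, while its replicates spread widely in BAN, DFR and THI2.1.

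Genes with a symbol, picked here after their values were known, gave 17 probe sets at an adjusted p under 0.05 without the fold limit, out of 1585, beside 1.02% of all probe sets. ETFBETA, a mitochondrial carrier of electrons from amino acid breakdown, fell to 9.12, 9.01 and 8.72 in Fe-1 from 10.10, 10.09 and 10.09 (difference -1.14 ± 0.12, adjusted p = 0.0156). It was lower still in Ts-1 (7.06) and Van-0 (6.79). UGT87A2, a UDP-glucosyltransferase, fell by 1.19 (adjusted p = 0.00916), whereas AT2G30150, the next gene on chromosome 2, rose by 2.06 (adjusted p = 0.000886). Van-0 shared this opposed pattern, at 8.06 for UGT87A2 and 7.42 for AT2G30150. The myosin gene VIIIB fell by 1.25 (adjusted p = 0.0139) and the kinase gene ATMPK13 by 0.88 (adjusted p = 0.0296). Among the smaller increases were the expansin genes EXPA21 (0.97) and EXPA4 (0.59), whose products loosen cell walls, POR (0.83), a cofactor of tubulin folding, PUB26 (0.69), a ubiquitin ligase, and plastid rps16 (0.69), a ribosomal protein gene. ATMYC1, a bHLH transcription factor, was the smallest of these changes at -0.52 ± 0.07 (adjusted p = 0.0412).

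The few measured members of the gene lists of stem cell and small RNA biology showed no call. Most members had no named probe set, so the lists as a whole were not read. For all probe sets the median was 0.01, with 14% of them at an unadjusted p under 0.05, and the medians and counts below are to be read beside these. Of 31 shoot meristem regulators, 4 were measured (median -0.02), namely the stem cell peptide gene CLV3, the phosphatase gene POL, LCR and the cytokinin response gene ARR15, and 0 passed an adjusted p under 0.05 in limma, with 0 at an unadjusted p. CLV3 read 5.27, 5.33 and 5.25 in Fe-1 against 5.42, 4.73 and 4.96 (difference 0.25 ± 0.18). Of the HD-ZIP III and leaf polarity genes, 3 of 15 were measured (median -0.17) and 0 passed, with 1 at an unadjusted p. PHV, a class III HD-ZIP gene and target of miR165 and miR166, read 9.90, 9.84 and 9.99 against 10.16, 9.88 and 10.22 (difference -0.18 ± 0.11, adjusted p = 0.549). YAB5 differed by 0.20 and YAB3 by -0.17. In the small RNA pathway 3 of 22 genes were measured (median -0.05) and 0 of their 4 probe sets passed, with 1 at an unadjusted p. AGO7 differed by -0.09 ± 0.11 and SE, a partner in microRNA processing, by -0.15 ± 0.11.

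SQN was uneven within the dependent class. One probe set read 8.63, 8.61 and 8.70 in Fe-1, 8.15 in Ler-0, 7.10 in Nw-0 and 6.55 in Bay-0. Fe-1 was above each of them, yet the spread among the 3 (SD 0.81) left the difference of 1.38 ± 0.38 short of the threshold (adjusted p = 0.192). Of the independent accessions, Ts-1 (9.44) and Van-0 (9.03) read above Fe-1, and Col-0 averaged 6. In the fit with 1 mean per accession over 11 arrays, Fe-1 exceeded Ler-0 by 0.50 ± 0.11 (adjusted p = 0.0246), Nw-0 by 1.55 ± 0.11 (adjusted p = 0.000232) and Bay-0 by 2.1 ± 0.11 (adjusted p = 4.71e-05). Only the difference from Bay-0 was also over 3-fold. That fit takes the spread from the Fe-1 and Col-0 replicates and assumes that the lone arrays vary alike. A further probe set of SQN stayed between 3.68 and 3.83 on these 6 arrays, below the lower quartile.

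Among the measured members of other lists, 0 also passed an adjusted p under 0.05 in limma. Among glucosinolate genes (6 of 37 measured, median 0.16, 1 at an unadjusted p), AOP1, of the family that modifies glucosinolate side chains, read 8.65, 8.51 and 8.54 in Fe-1 and 7.76, 7.75 and 8.12 otherwise (difference 0.69 ± 0.12, adjusted p = 0.0757). Among defence genes (4 of 27 measured, median 0.01, 1 at an unadjusted p), the thionin gene THI2.2, which encodes a small antimicrobial peptide, read 5.37, 5.05 and 5.66 in Fe-1, 6.55 in Ler-0, 9.43 in Nw-0 and 10.11 in Bay-0. Its difference of -3.34 ± 0.89 did not pass (adjusted p = 0.18), and by accession it did against Nw-0 (-4.07) and Bay-0 (-4.75) but not against Ler-0 (-1.19, adjusted p = 0.0847). THI2.1 was high in Fe-1 replicate 2 only, at 8.80 against 5.63 and 5.37 in replicates 1 and 3. Among heat, cold and handling genes (5 of 19 measured, median 0.01, 1 at an unadjusted p), the cold response gene COR15B read 7.11, 6.93 and 6.73 in Fe-1 and 7.29, 8.49 and 9.60 in Ler-0, Nw-0 and Bay-0 (difference -1.54 ± 0.54, adjusted p = 0.292). Photosynthesis genes, 4 of 27 measured, ranged from -0.08 to 0.16, with a median of -0.06. Of the flavonoid list 2 of 13 genes were measured (median 0.21, lowest adjusted p = 0.382), of flowering time LD and FY (0.04 and -0.02), of the clock GI (-0.24) and of the cell cycle AUR1 (0.17). None of these last 5 lists held a gene at an unadjusted p under 0.05. The seed coat pair had a median of 1.59, with an adjusted p of 0.363 for BAN and 0.7 for DFR. No gene of the seed maturation list counted as measured, as none had a 1-gene probe set in the annotation.

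The study chose 2 sets of genes on comparisons that include these arrays, so their members are not independent evidence here. The first holds 12 genes that separated dependent from independent accessions. All 12 differed by less than 2-fold between Fe-1 and the other dependent accessions, with differences from -0.84 to 0.79 and a median of -0.41, and 0 passed an adjusted p under 0.05 in limma, with 6 at an unadjusted p under 0.05, beside 14% of all probe sets. Over all probe sets 22215 of 22746 differed by less than 2-fold. AT5G38960, a germin-like protein gene, read 4.50, 4.16 and 4.79 in Fe-1 against 5.33, 5.65 and 4.97, while Col-0, Ts-1 and Van-0 lay at 7.34 to 8.39. AT5G17100, whose probe set is shared with another gene, read 10.24, 10.63 and 9.92 in Fe-1 against 10.46, 10.18 and 10.29, with 6.29 to 6.69 in the independent accessions (Col-0 as its mean). BZO2H3, a bZIP transcription factor, was lower on all 3 Fe-1 arrays, at 7.81, 7.85 and 7.27 against 8.78, 8.34 and 8.29 (difference -0.83, adjusted p = 0.156).

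The second set holds 20 probe sets of genes near the FHE loci, which modify ZLL dependency and were mapped between Ler and Col. AT1G48180 near FHE1 was the only one to pass, 1 of 20 beside 1.02% of all probe sets. It read 7.02, 7.04 and 7.16 in Fe-1 against 5.30, 4.98 and 5.08 (difference 1.95 ± 0.11, adjusted p = 0.00173). The independent accessions did not share a level, as Col-0 averaged 4.76, Van-0 read 6.06 and Ts-1 7.38. The median of the set was 0, the range -3.34 (THI2.2) to 1.95, and 8 of 20 members had an unadjusted p under 0.05, beside 14% of all probe sets. Near FHE2, SQN is given above, and AT2G15325, a lipid transfer protein gene, read 5.35, 5.90 and 5.51 in Fe-1 against 6.34, 7.42 and 6.78 (difference -1.26, adjusted p = 0.135). Near FHE5, CRR7 split the class, with 7.07, 7.28 and 7.37 in Fe-1 and 6.51 in Nw-0 against 9.54 in Ler-0 and 9.72 in Bay-0. GLP6 read 5.98, 5.98 and 6.27 in Fe-1 and 6.11 in Bay-0 against 7.73 in Ler-0 and 8.43 in Nw-0. Near FHE3, AT2G35820 had the Fe-1 arrays (9.01, 8.95 and 8.82) beside Ler-0 (9.31) and above Nw-0 (7.74) and Bay-0 (7.47).

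**Figure D5:**
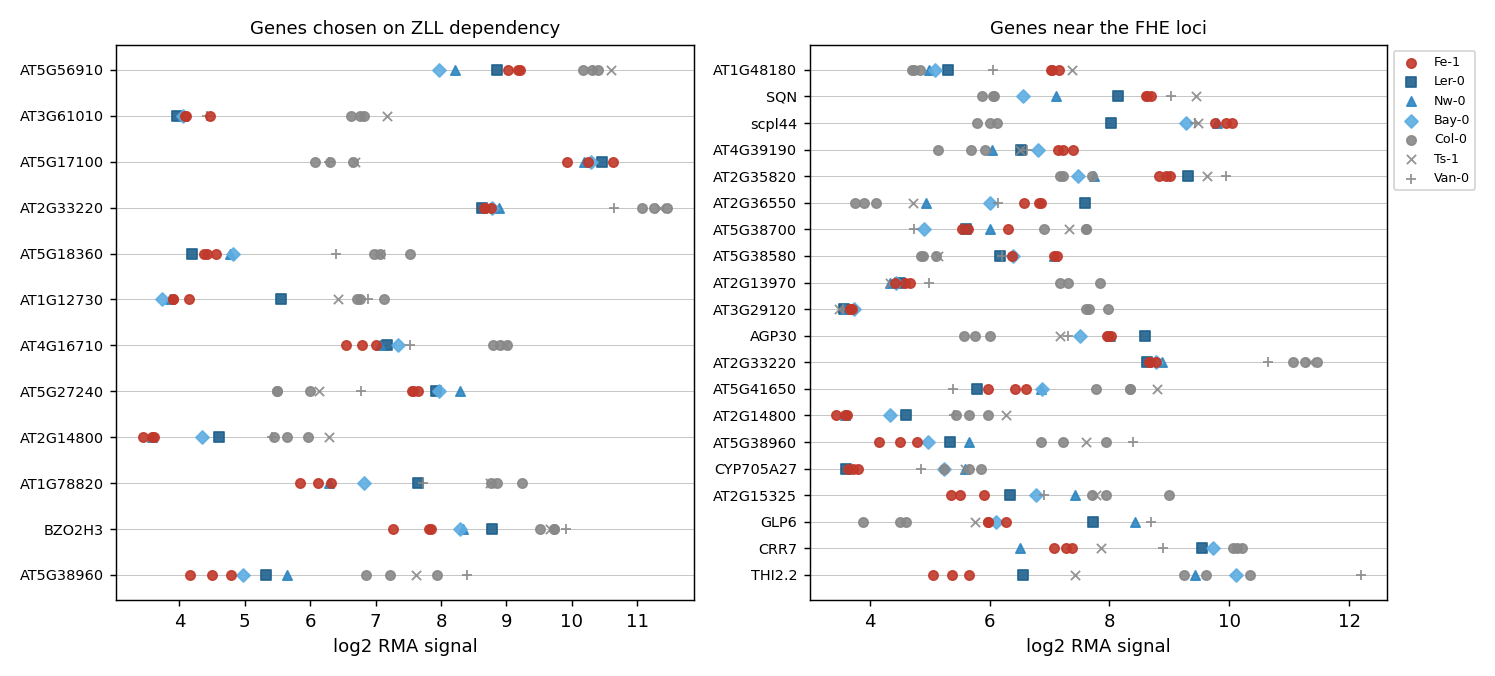
Log2 RMA signal (x axis) on the 11 arrays, 1 point per array, for the 12 genes the study chose on ZLL dependency (left) and its 20 probe sets near the FHE loci (right, one of them named AT3G29120 by the annotation). On the left the mean of the Fe-1 arrays (red) lies within 2-fold of that of Ler-0, Nw-0 and Bay-0 (blue), and on the right AT1G48180 is the only one past the threshold.

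Set against each accession on its own, Fe-1 differed most from Ler-0. In the fit with accession means, 122 probe sets were higher and 318 lower in Fe-1 than in Ler-0 (1.93% of those tested), 129 and 109 than in Nw-0 (1.05%), and 114 and 127 than in Bay-0 (1.06%). The same fit gave 441 probe sets between Ler-0 and Nw-0, 450 between Ler-0 and Bay-0 and 210 between Nw-0 and Bay-0. Fe-1 was higher than all 3 in 22 probe sets (0.0967%) and lower than all 3 in 29 (0.127%). These comparisons share the Fe-1 arrays. Of the 55 probe sets called against the group, 42 were also called in the same direction against each accession. A further 9 passed against each accession but not against the group. Among them AT5G58980 read 4.77, 4.72 and 4.97 in Fe-1 against 8.07, 9.41 and 7.03 (difference -3.35, adjusted p = 0.0651), and TET15, a tetraspanin gene, read 6.01, 6.17 and 6.0 against 11.79, 8.06 and 7.77 (difference -3.15, adjusted p = 0.261).

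The genes that varied most among Ler-0, Nw-0 and Bay-0 gave Fe-1 no constant place. AT2G32150 was high in Ler-0 (12.78) and low in Nw-0 (6.54), Bay-0 (5.91) and Fe-1 (5.82, 6.14 and 6.03). AT1G19530 was also high in Ler-0 alone, with 10.27 against 4.69 in Nw-0, 4.90 in Bay-0 and 4.84, 4.75 and 4.97 in Fe-1. In AT5G49640 Bay-0 was the low array (6.28) beside Fe-1 at 12.60 to 12.69, and in AT3G43740 it was the high one (9.17), with Fe-1 at 3.44 to 3.65. AT2G13550 joined Fe-1 (10.33, 10.22 and 10.72) to Ler-0 (11.15), apart from Nw-0 (5.64) and Bay-0 (5.44). In AT2G01090 the Fe-1 arrays (8.75, 8.53 and 8.59) lay between Nw-0 (11.35) and the low pair of Ler-0 (5.57) and Bay-0 (6.09).

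By chromosome, 6 of 3452 probe sets with 1 gene were called on chromosome 1 (0.174%), 7 of 2201 on chromosome 2 (0.318%), 9 of 2746 on chromosome 3 (0.328%), 5 of 1962 on chromosome 4 (0.255%) and 3 of 3011 on chromosome 5 (0.0996%). No chromosome was without a call. Among the called genes with a place, AT3G43280 and AT3G43290 were the only pair that gene order in TAIR10.1 puts side by side. Called probe sets without a placed gene were not included.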

How the data were processed

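ATH1 arrays were processed by the authors with RMA, and the deposited log2 values were used as they stand; the sources used here name no version. The 64 chip controls were left out. Gene names came from the platform annotation, and 13436 were matched to TAIR10.1 for names and gene order only. The 503 probe sets with several genes and 8730 unlisted ones carry no name, except 7 that tables of the paper name. Fits used limma 3.58.1 in R 4.3.3 (lmFit, eBayes), with a difference taken as Fe-1 minus the others; the scripts were tested on simulated data. Depth does not apply to arrays, and their number limits the precision. Named genes were the 10 largest called increases and decreases without overlap, up to 4 members per list, SQN, called genes of the study's sets, the 5 largest gaps to all other arrays each way, and the 6 largest ranges among Ler-0, Nw-0 and Bay-0. Members and lists were chosen with earlier results of these data known. Alternatives were other limits, normalisations, filters, spreads and left-out arrays.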

Additional observations from a re-analysis of the deposited data

How the results depend on the processing

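Of the numbers of probe sets higher and lower in Fe-1 (26 and 29), an unadjusted p gave 51 and 79, no fold limit 133 and 99, an ordinary t statistic 8 and 7, one mean per accession over all 11 arrays 59 and 105, accession as a random block 12 and 12 (estimated correlation 0.57), and Fe-1 replicate 1 alone 0 and 0. Leaving out 1 array gave 12 to 55 higher and 11 to 61 lower. Renewed quantile normalisation, median centring, a log2 limit of 1.5, leaving out the lowest 25% or shared probe set types, a trend with a robust fit, and a spread of its own for each group (chosen after the data were seen) stayed within 1.5 times. All 55 calls were shared by the fit with accession means, and 24 by the random block. Without a fold limit, Fe-1 differed from Ler-0 in 3552, from Nw-0 in 1873 and from Bay-0 in 1374 probe sets, and from all 3 in 187 (higher) and 180 (lower). For the 64 probe sets named by rule, no call changed direction; 59 values lost the threshold and 17 gained it, out of 1211. Among the named calls, AT2G07773 passed under 10 of 18 alternatives, AT3G58730 under 11, ALDH6B2 and AT5G47600 under 12 and AT2G27270 under 13 of 19, and the others named by rule under 16 to 18. No paired analysis was possible because Ler-0, Nw-0 and Bay-0 have only a replicate 1, so the sides share 1 number.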
